A study of Mus musculus with 2 samples.

Results

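Relative to the median of all genes, most measured genes of the splicing machinery lay within 2-fold between the mouse fibroblast lines. Most came from both alleles. Both also held for most of all measured genes. Their summed level was a larger part of 1 library than of the other. The set was chosen by symbol, as genes named Srsf with a number, Hnrnp, Sf3a or Sf3b with a number, or Snrp, and it held 47 of the 22711 genes in the files. It had 11 genes of SR proteins, 16 of hnRNP proteins, 8 of the SF3 complex and 12 of Sm and other snRNP proteins. A pair of further hnRNP genes are not analysed here. RNA came from immortal mouse embryonic fibroblasts that are hybrids of the inbred strains C57BL/6N (B6) and PWK/PhJ (PWK), grown in the same medium with calf serum, β-mercaptoethanol and antibiotics. The PWK-Xi line (strain label C57BL/6N X PWK/PhJ) has its PWK X chromosome inactive, and the B6-Xi line (PWK/PhJ X C57BL/6N) its B6 X chromosome. Each line gave 1 Smart-seq2 library of polyadenylated RNA, so every value describes 1 library, with no replicate, no test and no p-value. The labels do not say how the lines were made immortal or whether either is 1 clone.

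Spliceosomes remove introns from pre-mRNA and are built from small nuclear RNAs with bound proteins (snRNPs). A ring of Sm proteins sits on most of these RNAs, further proteins belong to single snRNPs, and the SF3 complex holds the U2 snRNP at the branch site. SR proteins, with domains rich in arginine and serine, mostly promote the use of nearby splice sites, while hnRNP proteins coat nascent RNA and often repress splice sites. Many genes of both groups limit their own expression by alternative splicing, and most genes of the machinery are active in practically all cells.

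Values are FPKM (fragments scaled for the length of the transcript and the depth of the library), given by the authors for each allele, and a level below is the sum of both alleles. Read depth is unknown. The PWK-Xi library had 12907 genes above 0 and a summed FPKM of 256196, and the B6-Xi library had 10127 genes and 285397. Of 12 fibroblast markers 11 had at least 1 FPKM in PWK-Xi and 10 in B6-Xi, with Vim at 0 in both and Lum at 0 in B6-Xi. None of 5 epithelial and 5 endothelial markers reached 1 FPKM in either line, and of 6 immune markers Cd68 alone did, at 3.25 and 1.39 FPKM in PWK-Xi and B6-Xi. Of 6 embryonic stem cell markers, PWK-Xi had 3 at 1 FPKM or more, Dppa5a at 134.9, Pou5f1 at 15.1 and Tdgf1 at 1.48, with Zfp42 at 0 and a summed level of 152.1 FPKM, whereas all 6 were listed at 0 in B6-Xi. Of 6 neural markers, Tubb3 (5.32 and 2.91 FPKM) and Stmn2 (5.22 and 0 FPKM) were above 0. The part of these other markers in the results below was not tested.

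The first question was which members could be read at all. Of the 47 genes, 39 were above 0 in both lines and 8 were listed at 0 in both, which is 17.0% of the members against 42.2% of all genes, most of which a fibroblast need not express. The 8 were the SR protein genes Srsf1, Srsf4, Srsf9, Srsf11 and Srsf12, the U2 subunit gene Sf3a1, the Sm protein gene Snrpf, and Snrpn, an imprinted gene whose Sm protein is known mainly from brain. Snrpf belongs to the ring that most spliceosomal snRNPs carry, so a 0 in these files does not show that a gene is silent. Nor could the imprinting of Snrpn be read. No member was at 0 in 1 line and above 0 in the other, a pattern that 4.54% of all genes that reached 5 FPKM in a line showed.

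Many of these genes have near-identical copies elsewhere in the genome, mostly processed pseudogenes, and the authors' counting could split reads among them. A copy was counted where at least 50% of a member's coding sequence matched another annotated gene at 90% identity or more. By this measure 21 of the 47 members had a copy. Hnrnpa3 had the most, 33, followed by Hnrnpa1 with 11, Snrpc with 7, Hnrnpf and Snrpa with 6 each and Srsf3 with 5. Levels and allele shares of these 21 genes are uncertain for that reason. Exons of 9 members overlapped those of another gene in the files, on the opposite strand for 7 of them, and nothing in the labels says whether libraries were stranded. Among them Srsf2 overlapped Mettl23 (19.5 and 18.2 FPKM in PWK-Xi and B6-Xi) and Mfsd11 (8.48 and 6.89 FPKM), and Sf3a2 overlapped Plekhj1 (17.5 and 11.03 FPKM).

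One pair of related members, the X-linked Hnrnph2 and the autosomal Hnrnph1 on chromosome 11, matters for reading the X chromosome. Both encode proteins that bind runs of G. Their coding sequences were 85.9% identical over 1350 aligned bases, below the limit for a copy. The first 60 coding bases of both genes, from the GENCODE transcripts of GRCm38, are shown because reads of the pair can be told apart only at such differences. Capitals mark the 10 bases that differ.
Hnrnph2: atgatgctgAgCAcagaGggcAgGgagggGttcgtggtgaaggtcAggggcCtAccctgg
Hnrnph1: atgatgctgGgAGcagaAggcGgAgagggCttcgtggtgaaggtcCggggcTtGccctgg

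Hnrnph2 was read from the active X in each line. In PWK-Xi it had 13.03 FPKM, all from B6, and in B6-Xi it had 8.09 FPKM, all from PWK, so the inactive X gave 0% in both. The same held for 64.6% of the 127 X-linked genes that reached 5 FPKM in each line, and 99.2% of them had B6 shares on opposite sides of 50% and at least 20 points apart. Hnrnph1, by contrast, came from both alleles, with a B6 share of 47.9% of 52.4 FPKM in PWK-Xi and 29.4% of 41.6 FPKM in B6-Xi. The B6 share is the percentage that the B6 allele makes of the level.

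Levels spanned more than the difference between the lines. Across the 39 genes above 0, Snrpg was highest in both lines, with 616.0 FPKM in PWK-Xi and 445.7 FPKM in B6-Xi. The lowest was Hnrnpul2 in PWK-Xi (2.93 FPKM) and Hnrnpul1 in B6-Xi (2.15 FPKM). The order of the genes was alike, with a Spearman correlation of the levels of 0.957 across the 39 members and 0.891 across the 9901 genes above 0 in both lines. These are correlations across genes, which share their libraries and are not replicates. Summed, the members made up 1.26% of the FPKM of the PWK-Xi library and 0.857% of the B6-Xi library. Without Snrpe and Snrpg these parts were 0.783% and 0.616%. The 10 highest genes of each library held 10.9% of its FPKM in PWK-Xi and 18.4% in B6-Xi, and their effect on these parts was not tested.

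**Figure D1:**
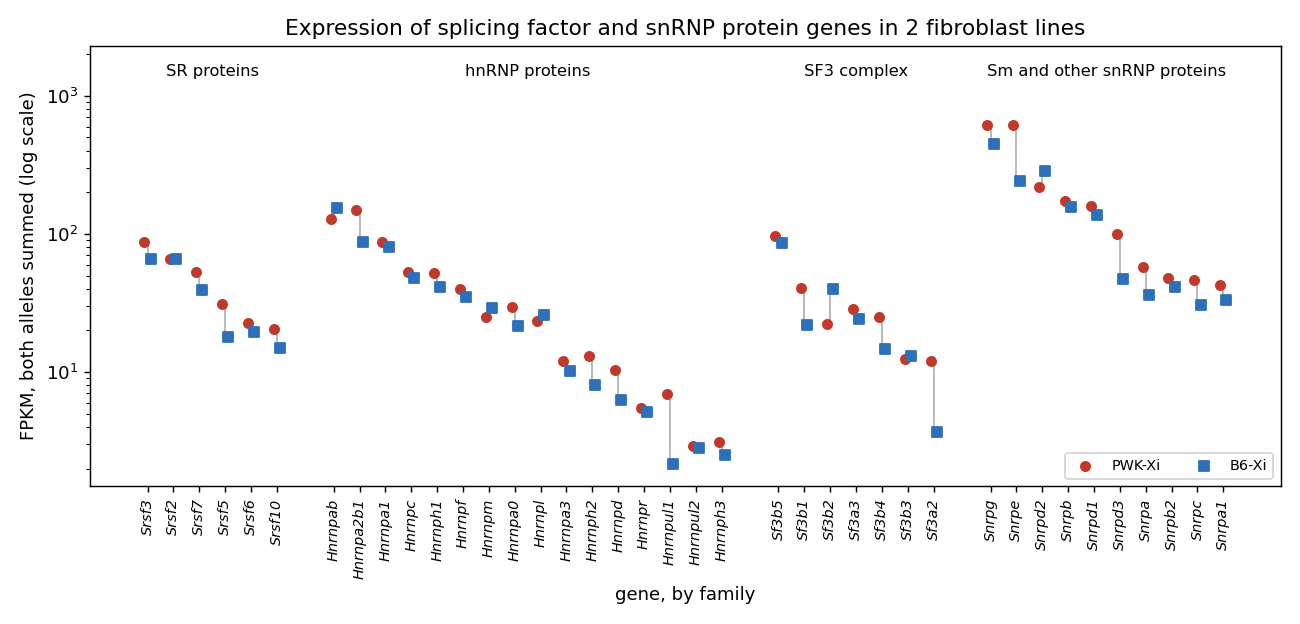
Level of each of the 39 members above 0, as FPKM of both alleles summed on a log axis, by family. Circles are the PWK-Xi library and squares the B6-Xi library (1 each), joined by a line. Sm genes lead with Snrpg at 616.0 and 445.7 FPKM, and most pairs of points lie close together.

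The second question was how the lines differed in total expression. Differences are log2((PWK-Xi + 1)/(B6-Xi + 1)) for genes that both files list above 0 and that reached 5 FPKM in one of them, taken relative to the median of all 5241 such genes, which was itself 0.19 above 0. Of 37 members measured, 33 lay within 2-fold, against 4246 of all 5241 genes. A difference of at least 2-fold upward in PWK-Xi was seen for 3 members, or 8.11%, against 10.1% of all genes, and downward for 1 member, or 2.70%, against 8.93%. The median of the members was 0.13. Of the 37, 25 lay above the all-gene median (50% of all genes do), and 31 lay within 1.5-fold of it, or 83.8% against 57.7% of all genes. Members were more abundant than most genes, with a median of 37.8 FPKM over both lines against 11.4 FPKM. Among genes that reached 20 FPKM in a line, 26 of 30 members (86.7%) lay within 1.5-fold, against 55.1% of all genes. The bound of 1.5-fold was chosen after values were seen.

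**Figure D2:**
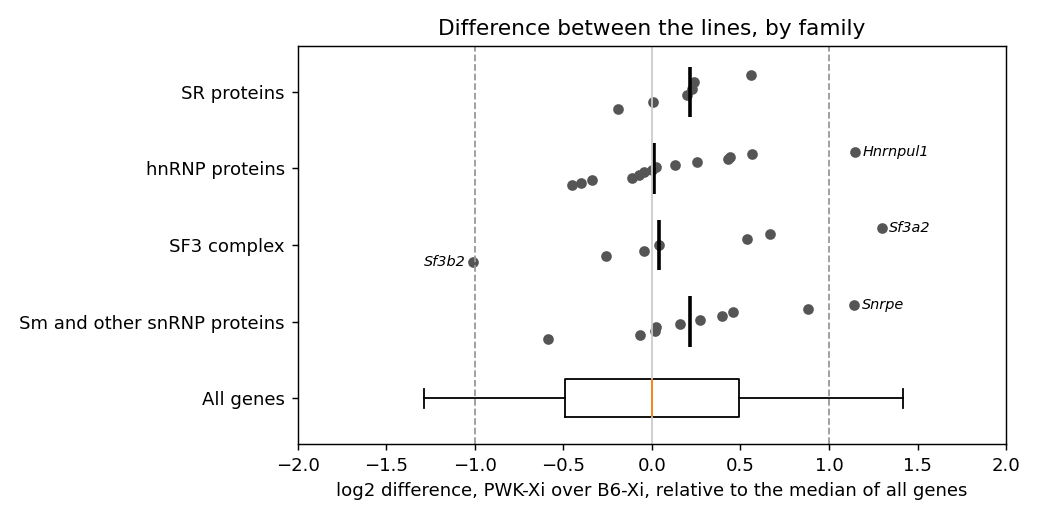
Difference in total expression for the 37 members measured, PWK-Xi over B6-Xi on a log2 scale relative to the median of all genes. Points are genes, black bars the family medians, dashed lines 2-fold, and the box the quartiles and median of all 5241 genes with whiskers at the 5th and 95th percentile. Hnrnpul1, Sf3a2, Snrpe and Sf3b2 are the 4 members outside the dashed lines.

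Sm proteins form the common core of the snRNPs, and 6 of the 7 genes of the ring had values. Snrpe, the gene of the E protein, had 614.2 FPKM in PWK-Xi and 242.5 FPKM in B6-Xi, a log2 difference of 1.14. It was the most abundant of the members past 2-fold. The difference lay mostly on the B6 allele, which had 439.1 FPKM in PWK-Xi and 123.8 FPKM in B6-Xi, while the PWK allele had 175.1 and 118.7 FPKM. Snrpe lies on chromosome 1, whose genes had a median B6 share of 70.2% in PWK-Xi and 51.4% in B6-Xi and a median log2 difference of 0.40. Snrpd3, which binds as a pair with the B protein, showed the opposite allelic pattern at 100.4 FPKM in PWK-Xi and 47.1 FPKM in B6-Xi (log2 difference 0.88). Its PWK allele had 52.4 FPKM in PWK-Xi and 11.8 FPKM in B6-Xi, and its B6 allele 48.0 and 35.3 FPKM. Snrpd3 passes 2-fold if the shift of all genes is not taken off (1.08).

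The other ring genes were closer between the lines. Snrpg had 616.0 FPKM in PWK-Xi against 445.7 FPKM in B6-Xi, a log2 difference of 0.27. For Snrpd2 the order was turned, with 219.6 FPKM in PWK-Xi and 288.1 FPKM in B6-Xi (-0.58). Its B6 allele was at 51.6 FPKM in PWK-Xi and 108.6 FPKM in B6-Xi, and its PWK allele at 167.9 and 179.5 FPKM. Snrpb, which encodes the B protein, and Snrpd1 differed least, with 172.3 and 157.4 FPKM for Snrpb and 158.2 and 136.6 FPKM for Snrpd1. The ring holds 1 copy of each protein. Its measured transcripts ranged between 100.4 and 616.0 FPKM in PWK-Xi and between 47.1 and 445.7 FPKM in B6-Xi. Snrpd3 was the lowest in both lines and Snrpg the highest. Snrpg and Snrpe have the shortest coding sequences of these genes, at 231 and 279 bases, and 4 and 2 near-identical copies. Snrpd3 has 381 coding bases and no such copy. The part of length and of copies in this range was not tested. Snrpe and Snrpg together made up 38.0% of the summed FPKM of all members in PWK-Xi and 28.1% in B6-Xi.

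**Figure D3:**
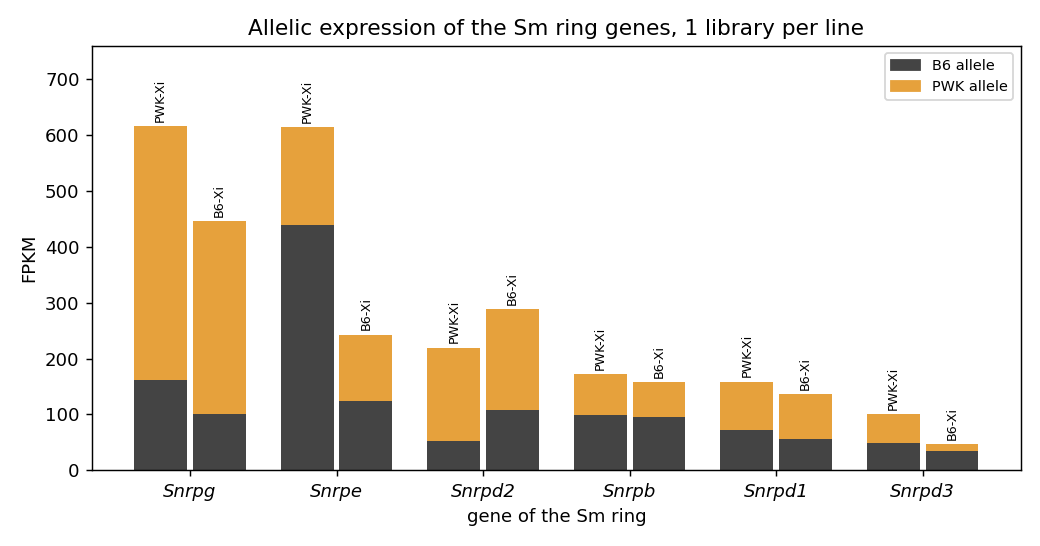
Level of the 6 measured Sm ring genes in FPKM, with the B6 allele at the bottom and the PWK allele on top of each bar; the left bar of a pair is the PWK-Xi library and the right bar the B6-Xi library. The B6 part of Snrpe stands at 439.1 FPKM in PWK-Xi and 123.8 FPKM in B6-Xi, and most of Snrpg comes from PWK in both.

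Proteins of single snRNPs were measured through 4 genes, all within 2-fold. Snrpa encodes the A protein of the U1 snRNP and had 57.7 FPKM in PWK-Xi and 36.4 FPKM in B6-Xi. Snrpc encodes its C protein and had 46.7 and 30.8 FPKM. In the U2 snRNP, Snrpb2 had 48.1 FPKM in PWK-Xi and 41.3 FPKM in B6-Xi, and its binding partner Snrpa1 had 42.5 and 33.1 FPKM. All 4 log2 differences were between 0.02 and 0.46.

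The SF3 complex held 2 of the 4 members past 2-fold. Sf3a2, a subunit that joins SF3 to the U2 snRNP, had 12.1 FPKM in PWK-Xi and 3.66 FPKM in B6-Xi (log2 difference 1.30). The B6 allele gave 93.5% of it in PWK-Xi and 84.6% in B6-Xi, with the PWK allele at only 0.79 and 0.56 FPKM. Sf3a2 was under 5 FPKM in B6-Xi, so it is not among the members whose shares are counted below. With a pseudocount of 5 its difference was 0.84, under 2-fold. Sf3b2 had 22.2 FPKM in PWK-Xi and 39.9 FPKM in B6-Xi, at the 2-fold limit with -1.01. Without the shift of all genes it was -0.82. Both alleles of Sf3b2 were lower in PWK-Xi, with 11.5 against 18.3 FPKM for B6 and 10.7 against 21.6 FPKM for PWK.

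Among the other SF3 subunits, Sf3b5 was the most abundant, with 96.5 FPKM in PWK-Xi and 86.7 FPKM in B6-Xi. Sf3b1, the largest subunit, which contacts the intron at the branch site, had 40.9 and 22.1 FPKM (0.67). It lies on chromosome 1, as Snrpe does. Sf3b4 had 24.9 and 14.6 FPKM (0.54). Sf3a3 had 28.6 and 24.1 FPKM, and Sf3b3 12.5 and 13.1 FPKM, both within 0.26 of the all-gene median on the log2 scale.

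All 6 measured SR protein genes lay within 1.5-fold of the all-gene median. Srsf3, the gene of the smallest SR protein, was the most abundant, with 87.1 FPKM in PWK-Xi and 66.1 FPKM in B6-Xi. Srsf2 had 65.5 FPKM in each line. Srsf7, whose protein also helps mRNA export, had 53.2 and 39.5 FPKM. Srsf5 lies on chromosome 12 and had 30.9 FPKM in PWK-Xi and 17.9 FPKM in B6-Xi (0.56), the widest difference of the family. Chromosome 12 as a whole had a median log2 difference of 0.76, and a median B6 share of 52.5% in PWK-Xi and 0% in B6-Xi. Srsf6 and Srsf10 had 22.8 and 20.7 FPKM in PWK-Xi, against 19.6 and 15.04 FPKM in B6-Xi.

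Of the 16 hnRNP genes, 14 had at least 5 FPKM in either line, and 13 of these lay within 1.5-fold. The exception was Hnrnpul1, a relative of the scaffold-attachment hnRNP proteins, with 6.98 FPKM in PWK-Xi and 2.15 FPKM in B6-Xi (log2 difference 1.15, and 0.60 with a pseudocount of 5). Hnrnpab had 129.0 FPKM in PWK-Xi and 154.1 FPKM in B6-Xi (-0.45), the lowest value in the family. Hnrnpa2b1, which binds RNA and takes part in splicing and RNA transport, had 148.8 and 87.6 FPKM (0.56). Hnrnpa1, a repressor of splice sites, had 87.5 and 80.4 FPKM. Hnrnpul2 and Hnrnph3 were under 5 FPKM in both lines, at 2.93 and 3.10 FPKM in PWK-Xi and at 2.81 and 2.504 FPKM in B6-Xi.

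The third question was from which strain's allele the members were expressed. Shares were read for the 34 autosomal members that reached 5 FPKM in each line. Their median B6 share was 50.6% in PWK-Xi and 51.1% in B6-Xi, against 52.4% and 50.0% for all 3825 such genes. A share between 40% and 60% was found for 22 members in PWK-Xi and 15 in B6-Xi, which is 64.7% and 44.1%, against 61.3% and 48.4% of all genes. In B6-Xi, 11 of the 34 shares matched, within 0.001 percentage points, a simple ratio with no denominator over 10 (32.4%, against 28.4% of all genes). In PWK-Xi 2 did (5.88%, against 4.16%). Shares of exactly 0% and 100% count as such ratios. They made up 4 and 2 of the 11 members in B6-Xi, and 233 and 64 of the 1086 such genes among all. The percentages therefore do not measure coarse steps alone. Snrpa1, at exactly 50.0%, and Snrpd3, at exactly 75%, are examples from B6-Xi.

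Chromosomes differed in their B6 share, more so in B6-Xi, and each member was therefore set beside the 20 nearest genes that had 1 FPKM or more in each line. Within 15 points of the median of these neighbours lay 27 of 34 members in each line, which is 79.4%, against 84.6% of all genes in PWK-Xi and 73.4% in B6-Xi. Across the 34 members, share and neighbour median had a Pearson correlation of 0.454 in PWK-Xi and 0.515 in B6-Xi, against 0.429 and 0.566 across all autosomal genes. Genes of 1 library share the chromosomes and steps behind both axes.

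**Figure D4:**
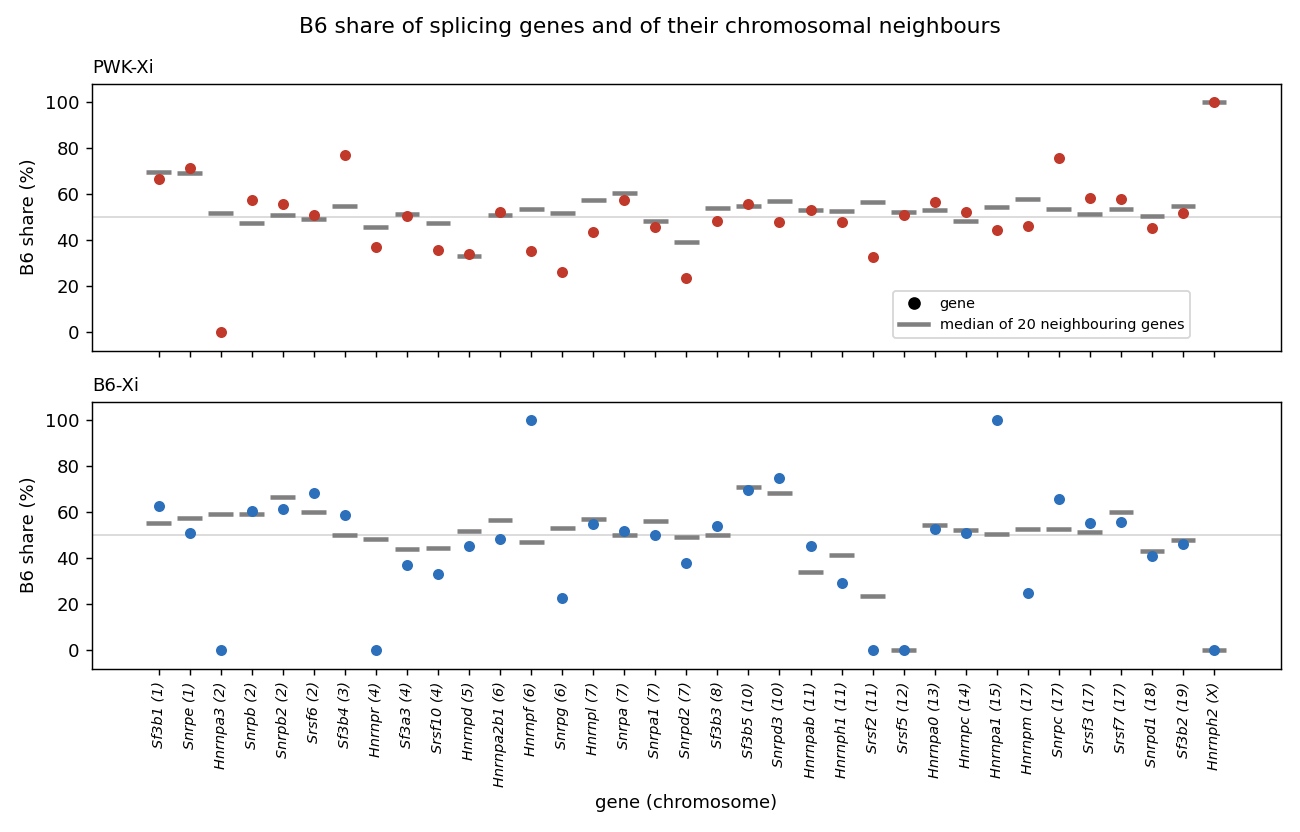
B6 share in percent of the 34 autosomal members and X-linked Hnrnph2 that reached 5 FPKM in each line, ordered by chromosome, for PWK-Xi (top) and B6-Xi (bottom). Points are genes and grey bars the median of the 20 neighbouring genes. Srsf5 and Hnrnph2 sit on their neighbours in both lines, whereas Hnrnpa3 at 0% and Snrpg at 26.3% and 22.6% lie far below theirs in both.

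Between the lines the B6 share differed by at least 20 percentage points for 8 of the 34 members, or 23.5%, against 26.8% of all autosomal genes. It was higher by this much in PWK-Xi for 5 of the 34 members (against 17.7% of all genes) and lower for 3 of the 34 (against 9.12%). The shares of 4 members lay on opposite sides of 50% as well as 20 points apart (11.8%, against 18% of all genes). Srsf5 had 50.7% in PWK-Xi and 0% in B6-Xi. Its neighbours on chromosome 12 had 52.3% in PWK-Xi and 0% in B6-Xi, so Srsf5 followed its surroundings. Srsf2, an SR protein that acts through exonic enhancers, had 32.6% and 0%. Its neighbours near the end of chromosome 11 had 56.4% and 23.4%, so its difference from them was -23.9 points in PWK-Xi and -23.4 points in B6-Xi. Snrpe had 71.5% in PWK-Xi and 51.0% in B6-Xi, close to its neighbours at 69.3% and 57.6%. Snrpd3 on chromosome 10 had 47.8% and 75%, with neighbours at 57.2% and 68.4%.

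The remaining 4 were hnRNP genes, and in B6-Xi each stood apart from its neighbours. Each of these B6-Xi shares was also a simple ratio as defined above, at 100%, 0% or 25% (28.4% of all genes had one). Hnrnpa1 had 44.4% in PWK-Xi and 100% in B6-Xi, where its neighbours had 50.5%. Its level hardly differed, so the B6 allele had 38.9 FPKM in PWK-Xi and 80.4 FPKM in B6-Xi, while the PWK allele had 48.6 FPKM in PWK-Xi and was listed at 0 in B6-Xi. Hnrnpf, a relative of Hnrnph1 that also binds runs of G, had 35.3% and 100%, with neighbours at 53.6% and 46.9%. Hnrnpr had 36.8% in PWK-Xi and 0% in B6-Xi at 5.48 and 5.12 FPKM, just above the minimum, with neighbours at 45.9% and 48.3%. Hnrnpm had 46.2% and 25%, with neighbours at 57.8% and 52.9%.

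A share of at most 10% or at least 90% was found for 1 member in PWK-Xi (1.67% of all genes) and for 6 members in B6-Xi, or 17.6% against 8.94% of all genes. These 6 were Srsf2, Srsf5, Hnrnpa3 and Hnrnpr at 0% and Hnrnpa1 and Hnrnpf at 100%. All but Srsf2 have near-identical copies, as do 18 of the 34 members. Members with copies lay a median of 8.17 points from their neighbours in PWK-Xi and 8.40 points in B6-Xi, and members without copies 3.40 and 6.41 points. Within 15 points were 12 of 18 members with copies in PWK-Xi and 13 in B6-Xi, and 15 and 14 of the 16 without. Whether reads of copies had a part in these shares was not tested.

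Some members leaned to the same strain in both lines. A B6 share of at most 40% in both, or of at least 60% in both, was found for 8 of 34 members (23.5%, against 15.7% of all genes), 6 on the PWK side and 2 on the B6 side. Hnrnpa3, an hnRNP protein gene closely related to Hnrnpa1, had 0% of 11.95 FPKM in PWK-Xi and 0% of 10.1 FPKM in B6-Xi, while its neighbours on chromosome 2 had 51.7% and 59.3%. Of the 34 members Hnrnpa3 alone had a share of at most 10% in both lines, and none had at least 90% in both. Of all autosomal genes at this level, 0.941% had either. Hnrnpa3 is also the member with 33 copies. Snrpg had 26.3% and 22.6%, against 51.7% and 53.1% for its neighbours on chromosome 6. Snrpd2 had 23.5% and 37.7%, and Srsf10 had 35.9% and 33.3%. Srsf2 and Hnrnpr are the other 2 on the PWK side. Snrpg has 4 near-identical copies, Snrpd2 and Srsf10 have 2 each, Hnrnpr has 1 and Srsf2 has none. The part of copies in these shares was not tested.

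On the B6 side were Snrpc, with 75.8% in PWK-Xi and 65.7% in B6-Xi against neighbours at 53.4% and 52.5%, and Sf3b1, with 66.4% and 62.7%. Sf3b1 had neighbours at 69.6% and 55.3%. Sf3b4 came close to this side, with 77.0% and 58.6%. Snrpc has 7 near-identical copies, Sf3b4 has 1 and Sf3b1 has none. Only Hnrnpa3, Snrpg and Srsf2 lay more than 15 points from their neighbours on the same side in both lines, 8.82% of the 34 members against 6.04% of all genes.

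The wider splicing machinery was read from 7 lists with 105 genes, of which 102 were in the files and 10 were listed at 0 in both lines. Of 73 with a measured difference, 7 passed 2-fold upward in PWK-Xi (9.59%, against 10.1% of all genes) and 2 downward (2.74%, against 8.93%). The median was 0.10. Within 2-fold lay 64 of the 73, against 4246 of all 5241 genes. A further 4 genes, all from the list of other splicing regulators, were above 0 in PWK-Xi and listed at 0 in B6-Xi, so they had no measured difference. Pcbp1, which binds runs of C, had 72.1 FPKM in PWK-Xi, Raly had 6.12 FPKM, Taf15 2.55 FPKM and Esrp2 0.065 FPKM. Of these, Pcbp1 and Raly reached 5 FPKM in a line, and Taf15 and Esrp2 did not. Of all genes that reached 5 FPKM in a line, 4.39% were listed at 0 in B6-Xi alone and 0.146% in PWK-Xi alone.

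All 6 factors of the branch site and 3′ splice site were within 2-fold. Among them Puf60 had 24.5 FPKM in PWK-Xi and 33.4 FPKM in B6-Xi, and U2af1, which reads the AG at the end of introns, had 27.8 and 16.8 FPKM. Of the LSm proteins of U6, 3 were measured, all within 2-fold, led by Lsm7 (121.8 and 87.9 FPKM) and Lsm4 (101.2 and 76.8 FPKM). Lsm2, Lsm3 and Lsm5 were listed at 0 in both lines. The 7 measured genes of SR protein kinases and their importer were within 2-fold and above the all-gene median (50% of all genes are). Some lay almost on it, with Clk4 at 0.002 and Clk3 at 0.03, and Clk1 was highest at 0.79. Clk1 had 20.9 and 10.1 FPKM and Srpk2 15.7 and 9.96 FPKM in PWK-Xi and B6-Xi.

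Of 25 measured core spliceosome genes, 1 passed 2-fold upward in PWK-Xi (10.1% of all genes did) and 2 passed it downward (8.93% did). Bud31 had 185.8 FPKM in PWK-Xi and 74.5 FPKM in B6-Xi (1.11). Snrnp25, a gene of the minor spliceosome, had 31.1 and 67.5 FPKM (-1.29), and Xab2 had 2.27 and 6.69 FPKM (-1.43). Snrnp27 stayed close, at 58.0 and 47.7 FPKM. Of 8 measured genes of snRNP assembly, whose complex loads Sm rings onto RNA, 2 passed 2-fold upward (against 10.1% of all genes). Gemin6 had 20.9 and 6.63 FPKM (1.33), and Gemin2, on chromosome 12, had 8.45 and 1.84 FPKM (1.54). The B6 share of Gemin2 was 38.5% in PWK-Xi and 0% in B6-Xi, where the median of its chromosome was also 0%. Gemin2 in B6-Xi and Xab2 in PWK-Xi were under 5 FPKM, where the pseudocount weighs more. Gemin7 (77.8 and 78.8 FPKM) and Strap (36.6 and 37.7 FPKM) were the most abundant.

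Among 19 other splicing regulators, 4 passed 2-fold upward in PWK-Xi (10.1% of all genes did) and none of the 19 downward (8.93% did). Mbnl1, a regulator of developmental splicing, had 21.3 FPKM in PWK-Xi and 3.43 FPKM in B6-Xi (2.14), and Qk, which binds introns and mRNA, had 26.6 and 8.06 FPKM (1.42). Son had 29.2 and 11.6 FPKM (1.06), and Ptbp3, a relative of the polypyrimidine tract binding protein, had 11.02 and 4.18 FPKM (1.02). Mbnl1 and Ptbp3 were under 5 FPKM in B6-Xi, where the pseudocount weighs more. The most abundant were Nono, at 49.4 and 45.1 FPKM, and Mbnl2, at 63.6 and 27.4 FPKM (0.99). All 5 genes of the exon junction complex, which marks spliced mRNA, were within 2-fold, with Magoh at 118.3 and 63.5 FPKM and Eif4a3 at 65.1 and 75.3 FPKM.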

How the data were processed

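The authors deposited FPKM values of 22711 genes for each library, with 1 column per allele, per the file headers. The build mm9, StringTie 2.1.1, HISAT2 2.2.0 and Trim Galore 0.6.4 are named in the submitters' processing notes. The sources used here do not say how reads were split by allele. Groups came from the sample titles. The members and lists were chosen with earlier results of these data known. Differences used a pseudocount of 1 FPKM, at least 5 FPKM in either line and the median of all genes as 0; shares used at least 5 FPKM in both lines. Alternatives were other pseudocounts, filters and centring, and leaving out the 9 autosomes whose median B6 share lay over 5 points from the autosomal median in either line. Chromosomes and gene order came from RefSeq annotation of GRCm38.p6 (21416 genes matched by symbol, 1179 by synonym, 116 not), a later build than mm9, so no coordinates are given. The neighbour medians (10 genes on each side), the copy and overlap searches, and the bounds of 40% and 60% for shares, of 15 points from neighbours and of 1.5-fold were chosen after values were seen. Copies were searched with blastn 2.17.0 in GENCODE M21 transcripts of GRCm38. Named by rule were, per family, the 3 most abundant members, members past 2-fold, at 0 in 1 line, with share differences of 20 points or shares of at most 10% or at least 90%, and members that are X-linked, imprinted or on chromosome 12; per wider list the 2 most abundant genes and those past 2-fold. Other members named were chosen after their values were seen. Computations ran in pandas 2.3.3 and numpy 2.4.6 under Python 3.11.15, with plots by matplotlib 3.10.9, and the fold step was tested on simulated data.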

Additional observations from a re-analysis of the deposited data

Results flagged for a closer look

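For 5 members with at least 5 FPKM in both lines, 1 allele was the higher in PWK-Xi and the other in B6-Xi, with B6 shares at least 20 percentage points apart. Of the 34 autosomal members 4 showed this (11.8%, against 18% of all autosomal genes), and the fifth, Hnrnph2, is X-linked, where 99.2% of the 127 genes at this level showed it. The difference was not tested, since each line has 1 library. The B6 share, PWK-Xi minus B6-Xi, differed by 100 points for X-linked Hnrnph2 and by 50.7 points for Srsf5 on chromosome 12. It differed by -64.7 points for Hnrnpf, by -55.6 points for Hnrnpa1 and by -27.2 points for Snrpd3.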

How the results depend on the processing

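No paired analysis was possible because each line had 1 library. The count of members at least 2-fold higher in PWK-Xi (3) was 1 with a pseudocount of 5, with at least 20 FPKM in either line, and off the skewed chromosomes. The count at least 2-fold lower (1, Sf3b2) was 0 with a pseudocount of 5, with no filter, with at least 20 FPKM and without centring. Without centring the members' median log2 difference was 0.32, against 0.19 for all genes. Off the skewed chromosomes it was 0.16, against -0.13 for all genes there, so the members lay further above the other genes than on all chromosomes (0.13 against 0). Taken over the summed FPKM, the members' B6 share in B6-Xi was 45.0%, against a median over genes of 51.1%. Off the skewed chromosomes 3 of 17 members differed in share by at least 20 points, against 19.0% of all genes there. A result counted as moved past 0.1 on the log2 scale, 5 points of share or 1.5 times a count, and the other planned settings moved none of the members' values by this measure. Among single members, 106 of 111 differences under other pseudocounts or without centring kept their side of 2-fold, 4 were no longer past it and 1 newly was. The sign changed in 7 of the 111, for none of the members past 2-fold. Without centring, Sf3b5, Snrpb, Hnrnpa1, Hnrnpc, Hnrnpr and Srsf2, which lay between -0.19 and -0.04, took values between 0.0004 and 0.15. With a pseudocount of 0.1, Hnrnpf had -0.0045, against 0.0038. Read depth is unknown, so the error of a single share or level could not be given.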
